A study of Homo sapiens with 8 samples.

Results

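The heat shock chaperones examined here are 10 genes, taken as the rows of the deposited count table whose symbol was HSF1, HSPA1A, HSPA1B, HSPA8, HSPH1, DNAJB1, HSPB1, HSP90AA1, HSP90AB1 or BAG3, among 55679 gene identifiers in all. Each matched 1 identifier. RNA-seq was available from MDA-MB468 and BT549, both established human lines of triple-negative breast cancer (lacking the estrogen, progesterone and HER2 receptors), as parental cells and as chronically exposed (CE) cells. The CE cells, 1 culture per line, had been kept in up to 40 μmol/L Acetalax (oxyphenisatin acetate, a former laxative) and then without it for 2 weeks. Each of these 4 backgrounds gave 1 untreated control library and 1 library after 1 μmol/L Acetalax for 6 hours, so 8 libraries stood for 8 conditions without replicates. The question for these genes was whether their RNA differed after Acetalax, between the lines and in CE cells.

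Heat shock proteins keep other proteins folded. HSF1 is the transcription factor that, on heat or other protein damage, binds heat shock elements in promoters and switches on chaperone genes. HSP70 proteins (the inducible HSPA1A and HSPA1B and the constitutive HSPA8) hold unfolded stretches of a client protein in a cycle driven by ATP. J-domain proteins such as DNAJB1 deliver clients and start ATP hydrolysis, and nucleotide exchange factors such as HSPH1 and BAG3 release them. HSP90 proteins (HSP90AA1, the more inducible, and HSP90AB1, the more constitutive) finish the folding of kinases and steroid receptors, and the small heat shock protein HSPB1 (HSP27) holds unfolded proteins without ATP. Cancer cells commonly express many of these genes without heat.

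Promoter sequences are shown first because the members share a regulator. They came from RefSeq (GRCh38.p14), which held promoters of 9 of the 10 members, as windows from 250 bases before to 50 after a transcript start. A heat shock element is built of GAA units in alternating orientation with 2 bases between them. Both strands were searched for a 2-unit match (GAANNTTC or TTCNNGAA, each its own reverse complement), for a 3-unit match (3 such units in a row, which also counts as overlapping 2-unit matches) and for TATAAA. A gene counted as matched where any of its promoters held the match. A 2-unit match was present for 7 of the 9 members, against 16.18% of 27305 genes in the same table. A 3-unit match was present for HSPA8, HSP90AA1 and HSP90AB1, against 0.61% of genes. TATAAA was found for HSPA1A and HSPA1B only, against 13.99% of genes. HSPH1 and BAG3 had none of these letters in their windows. The 250 bases upstream of the start are given for the 4 members whose log2 ratio between 2 libraries reached 1 in size, in the orientation of the gene, with the matches in capitals.
HSPA8 (chr11:123062137-123062386, minus strand): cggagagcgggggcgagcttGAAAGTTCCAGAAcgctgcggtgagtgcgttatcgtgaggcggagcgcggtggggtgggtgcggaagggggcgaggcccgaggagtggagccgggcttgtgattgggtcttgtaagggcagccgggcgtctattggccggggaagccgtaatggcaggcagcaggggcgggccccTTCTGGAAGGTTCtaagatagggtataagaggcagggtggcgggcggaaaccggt
DNAJB1, second of 3 promoters (chr19:14518398-14518647, minus strand): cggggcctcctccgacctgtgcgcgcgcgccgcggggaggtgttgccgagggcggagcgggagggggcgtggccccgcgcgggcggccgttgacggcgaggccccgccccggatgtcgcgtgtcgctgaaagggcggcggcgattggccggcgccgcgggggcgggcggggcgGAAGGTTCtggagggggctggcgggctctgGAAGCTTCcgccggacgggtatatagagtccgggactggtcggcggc
HSP90AA1, second of 2 promoters (chr14:102087045-102087294, minus strand): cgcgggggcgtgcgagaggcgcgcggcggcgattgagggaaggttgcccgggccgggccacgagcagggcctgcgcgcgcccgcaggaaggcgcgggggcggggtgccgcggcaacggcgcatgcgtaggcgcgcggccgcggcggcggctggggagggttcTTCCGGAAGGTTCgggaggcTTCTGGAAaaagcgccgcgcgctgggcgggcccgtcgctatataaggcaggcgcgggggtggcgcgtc
HSPB1 (chr7:76302423-76302672, plus strand): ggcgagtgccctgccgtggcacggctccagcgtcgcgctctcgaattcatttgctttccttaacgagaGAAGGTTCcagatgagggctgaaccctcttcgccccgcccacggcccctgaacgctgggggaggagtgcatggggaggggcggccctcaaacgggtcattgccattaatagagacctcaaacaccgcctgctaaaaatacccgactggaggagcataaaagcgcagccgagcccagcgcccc
HSPA8 held a pair of 3-unit matches, at bases -230 to -218 and -55 to -43 from the start. HSP90AA1 held a 3-unit match at -88 to -76 and a further 2-unit match at -68 to -61. DNAJB1 held 2-unit matches at -77 to -70 and -47 to -40, and HSPB1 a single one at -182 to -175. No binding was measured here, and a match of letters is a description only.

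The libraries held 42261122 to 54241728 counts on genes, so 1 CPM (counts scaled per 1000000 counts on genes) stood for 42.3 to 54.2 counts. The epithelial marker EPCAM was at 409 to 439 CPM in MDA-MB468 and at most 0.189 CPM in BT549, while the mesenchymal VIM was at 864 to 1414 CPM in BT549 and at most 8.94 in MDA-MB468. ESR1 was at most 5.15 CPM and PGR at most 0.627. ERBB2 was at 41.2 to 95.2 CPM. Of the markers of other cells given here, CD3E was at 0 in all 8 libraries and PTPRC, CD68 and ALB were below 1 CPM, and the endothelial CDH5 reached 8.01 CPM in MDA-MB468 and was at 0 in BT549. BT549 CE libraries stood apart from BT549 parental ones in the keratin KRT8, at 34.4 and 22.3 CPM against 1.25 and 0.851. The BT549 CE Acetalax library also had the lowest TMM factor of edgeR, 0.867, and the lowest share of mitochondrial counts, 4.0% against up to 10.0%. RNA was read from whole cultures, so that fewer cells expressing a gene and less RNA per cell cannot be told apart.

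The members took 0.572% to 1.172% of all counts on genes, the lowest share in BT549 CE cells after Acetalax and the highest in untreated BT549 parental cells. Levels between genes were compared as FPKM (CPM per kilobase of merged exons). HSP90AB1 was the most abundant member in all 8 libraries, at 552 to 918 FPKM. HSPA8 ranged from 180 to 631 FPKM, HSP90AA1 from 302 to 874 FPKM and HSPB1 from 114 to 502 FPKM. The regulators and cofactors were lower: HSPH1 was at 25.4 to 113 FPKM, BAG3 at 19.9 to 57.7, HSF1 at 13.3 to 41.3 and DNAJB1 at 9.30 to 40.1. The order differed between lines. In all 4 MDA-MB468 libraries HSF1 came last and HSPA8 was second, whereas in all 4 BT549 libraries DNAJB1 came last, and HSPB1 was second in BT549 CE cells with and without Acetalax. Without replicates, neighbours in this order were not tested.

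The inducible HSP70 genes were in effect not counted. HSPA1A (chr6:31783291-31785723, hg19) had 7 counts in BT549 parental control, 3 in MDA-MB468 parental control, 14 in BT549 CE control and 7 in MDA-MB468 CE control. After Acetalax it had 3, 1, 1 and 3 counts in the same order. HSPA1B (chr6:31795512-31798031) had 1 count in BT549 CE control and 0 in the other 7 libraries, which allows up to 0.0593 to 0.0710 CPM (3 counts, counting error only). The genes have near-identical coding parts: 69.42% of the 101-base windows of HSPA1A transcripts and 72.78% of those of HSPA1B occurred in transcripts of another gene, mostly of each other, and only uniquely placed reads were counted. The rest of each gene was unique among the annotated transcripts. Along the same stretch of chromosome 6, HSPA1L had 0 to 12 counts and C6orf48 0 to 4, while LSM2 on one side had 778 to 2142 and NEU1 on the other 815 to 7548. HSPA6, another inducible HSP70 gene on chromosome 1, had 2 to 11 counts. Why these genes have almost no counts was not tested. Whether the alignment reference held alternate copies of this region is not given in the sources used here, so the counts cannot be read as low expression. No fold change is given for HSPA1A or HSPA1B, which also failed the low-count filter of the tests. The other 8 members had 2649 to 188210 counts in every library and averaged over 5 CPM, and they are the members tested.

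**Figure D1:**
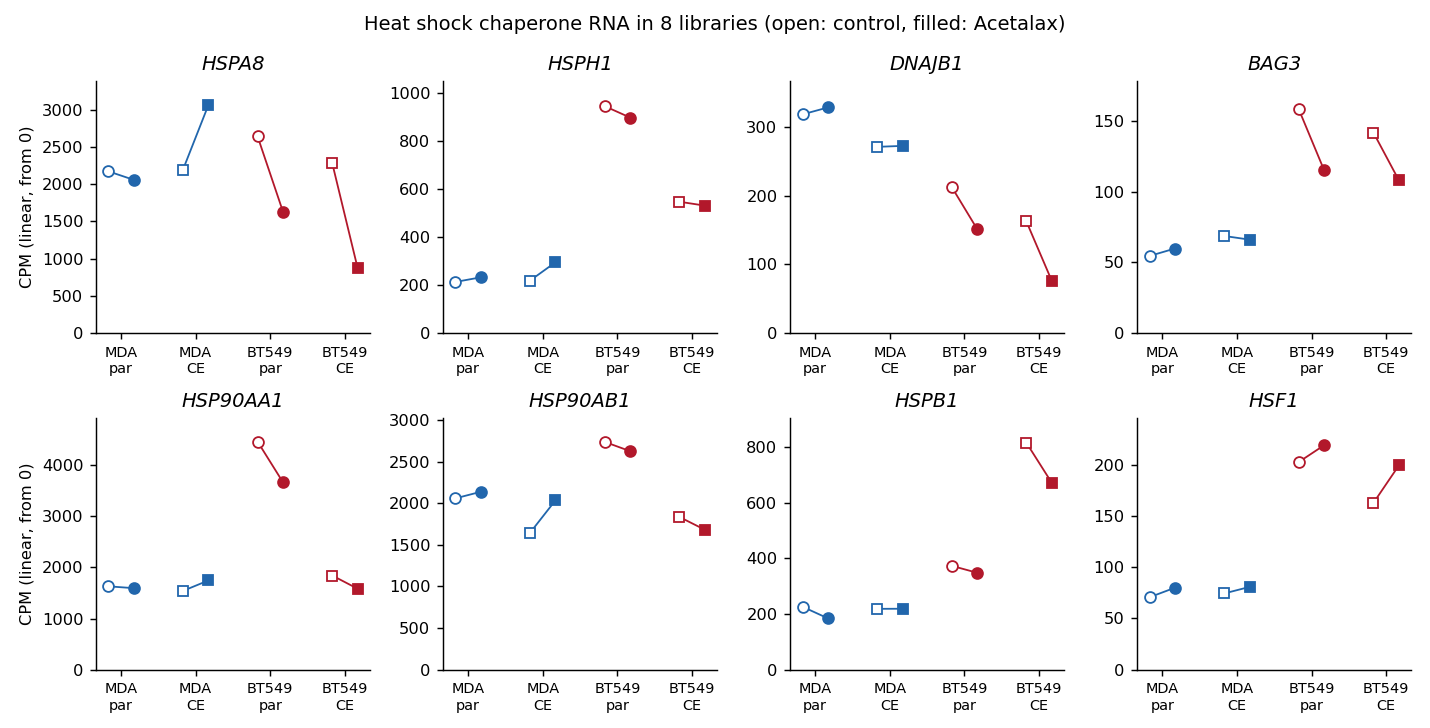
RNA level in CPM (vertical axes, linear, each from 0) of the 8 counted members in 4 backgrounds along the horizontal axes (MDA, MDA-MB468, blue; BT549, red; par, parental, circles; CE, squares), with open symbols for control and filled for Acetalax; each point is 1 library. HSPA8 was at 2281 CPM in BT549 CE control and 874 after Acetalax, and at 2194 and 3060 in MDA-MB468 CE cells.

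HSPA8, the constitutive HSP70, was lower after Acetalax in both BT549 backgrounds, higher in MDA-MB468 CE cells and nearly level in MDA-MB468 parental cells. Its level in BT549 was 2639 CPM in parental control and 1629 after Acetalax, and 2281 CPM in CE control and 874 after Acetalax. In MDA-MB468 it was 2171 and 2057 CPM in parental cells and 2194 and 3060 CPM in CE cells. Both treated BT549 libraries thus lay below all other libraries, and the treated MDA-MB468 CE library lay above them. On the log2(CPM + 0.5) scale the ratios were -0.08 and 0.48 in MDA-MB468 parental and CE cells and -0.70 and -1.38 in BT549 parental and CE cells, the last a 2.61-fold lower level. The exact 95% counting interval of the last ratio was -1.40 to -1.37, and such intervals cover counting error only, not the spread between cultures.

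DNAJB1, the J-domain partner of HSP70, was also lower after Acetalax in both BT549 backgrounds. It was at 213 CPM in BT549 parental control and 152 after Acetalax, and at 163 CPM in BT549 CE control and 76.1 after Acetalax. In MDA-MB468 it was at 319 and 329 CPM in parental cells and at 271 and 273 CPM in CE cells. The ratio was -0.49 in BT549 parental and -1.09 in BT549 CE cells, against 0.04 and 0.01 in MDA-MB468 parental and CE cells. The last of these was within counting error. DNAJB1 overlaps the antisense gene TECR on chromosome 19, and the strand used in counting is not given in the sources used here, so some of its counts may belong to TECR. DNAJB1 per HSPA8 (FPKM) moved by less than DNAJB1 itself in BT549, from 0.0477 to 0.0551 in parental and from 0.0422 to 0.0516 in CE cells. In MDA-MB468 the ratio moved by more than DNAJB1 did, from 0.0869 to 0.0946 in parental and from 0.0732 to 0.0528 in CE cells.

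HSPH1 and BAG3, which release clients from HSP70, differed from each other. HSPH1 was nearly level in BT549 and BAG3 was lower there after Acetalax. HSPH1 was at 947 and 899 CPM in BT549 parental control and Acetalax, and at 548 and 532 CPM in BT549 CE cells. In MDA-MB468 it was at 213 and 233 CPM in parental cells and at 219 and 295 in CE cells. Its ratios were -0.07 and -0.04 in BT549, which turned to 0.01 and 0.11 under TMM scaling, and 0.12 and 0.43 in MDA-MB468 parental and CE cells. HSPH1 per HSPA8 therefore went from 0.139 to 0.352 in BT549 CE cells. BAG3, which links HSP70 to autophagy, was at 158 and 115 CPM in BT549 parental control and Acetalax and at 142 and 108 in BT549 CE cells. In MDA-MB468 it was at 54.5 and 59.7 CPM in parental and 68.6 and 66.0 in CE cells. The BAG3 ratios were -0.46 and -0.39 in BT549 and 0.13 and -0.05 in MDA-MB468, the last within counting error and 0.01 under TMM scaling.

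The HSP90 genes had ratios between -0.28 and 0.31. HSP90AA1 was at 4454 CPM in BT549 parental control and 3661 after Acetalax (ratio -0.28), and at 1840 and 1582 CPM in BT549 CE cells (-0.22). In MDA-MB468 it was at 1629 and 1593 CPM in parental cells (-0.03, and 0.03 under TMM scaling) and at 1540 and 1743 CPM in CE cells (0.18). HSP90AB1 went from 2736 to 2625 CPM in BT549 parental, from 1835 to 1682 in BT549 CE, from 2058 to 2137 in MDA-MB468 parental and from 1645 to 2034 CPM in MDA-MB468 CE cells. Its ratios were -0.06, -0.13, 0.05 and 0.31 in that order, and the negative ones became 0.02 and 0.03 under TMM scaling. HSP90AA1 per HSP90AB1, which is free of library scaling, was lower after Acetalax in all 4 backgrounds, by 0.09 to 0.22 in size on the log2 scale. This was not tested, and an exact permutation test over 4 pairs cannot give a two-sided p below 0.125.

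HSPB1, the small heat shock protein, was at 226 and 185 CPM in MDA-MB468 parental control and Acetalax and at 219 in both MDA-MB468 CE libraries. In BT549 it was at 373 and 348 CPM in parental cells and at 815 and 672 CPM in CE cells. The ratios were -0.29, 0.00, -0.10 and -0.28 in that order. HSF1, the regulator, was higher after Acetalax in all 4 backgrounds, the only such member by CPM. Under TMM scaling HSPH1 and HSP90AB1 were also higher in all 4. The share of all genes higher in all 4 is not given here, so this is a description only. HSF1 went from 70.7 to 80.0 CPM in MDA-MB468 parental, from 74.4 to 80.8 in MDA-MB468 CE, from 203 to 219 in BT549 parental and from 163 to 199 CPM in BT549 CE cells. Its ratios were 0.18, 0.12, 0.11 and 0.29, and 0.23, 0.19, 0.19 and 0.45 under TMM scaling. The activity of HSF1 depends on trimer formation and phosphorylation, which RNA levels do not measure.

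**Figure D2:**
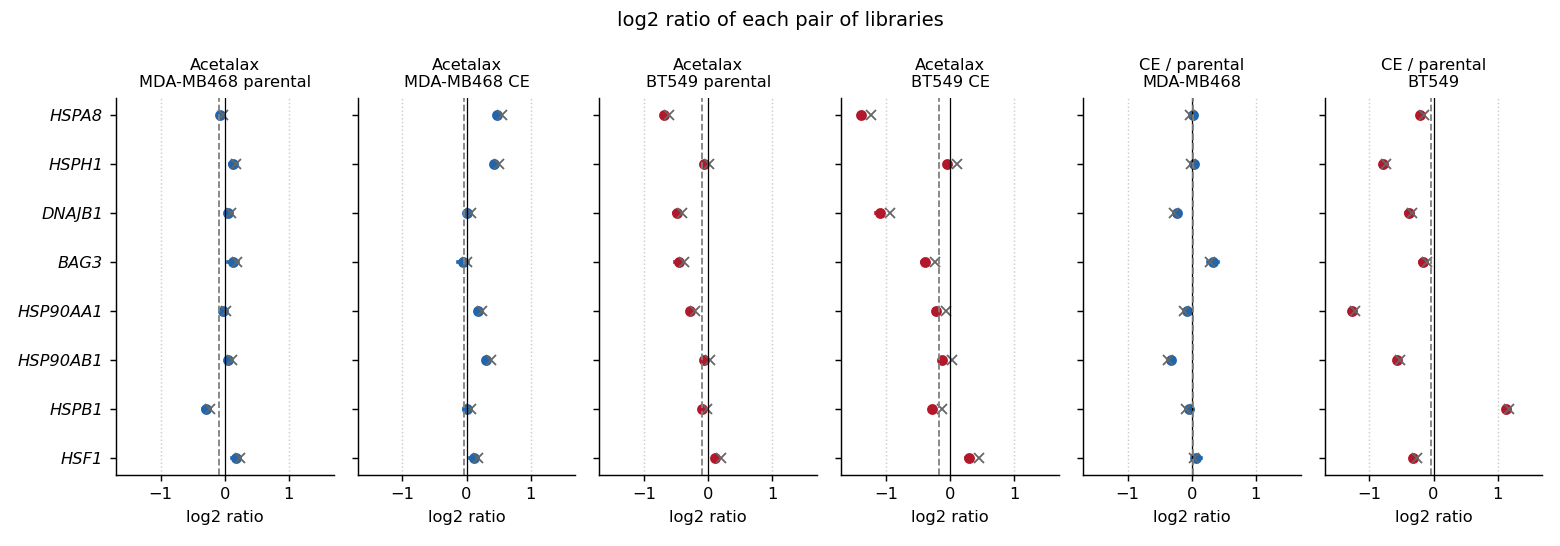
Difference of log2(CPM + 0.5) (horizontal axes) for the 8 counted members in each pair of libraries, with bars for the exact 95% counting interval (often narrower than the point), crosses for the value under TMM scaling, a dashed line at the median of all genes and dotted lines at -1 and 1. HSPA8 (-1.38) and DNAJB1 (-1.09) pass -1 in BT549 CE cells after Acetalax, and HSP90AA1 (-1.28) and HSPB1 (1.13) pass 1 in size between BT549 CE and parental controls.

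Over the 8 members, 5 were higher and 3 lower after Acetalax in MDA-MB468 parental cells and 7 were higher and 1 lower in MDA-MB468 CE cells. In BT549, 1 was higher and 7 were lower in parental and in CE cells alike. Under TMM scaling the split was 6 to 2 and 8 to 0 in MDA-MB468 parental and CE cells and 3 to 5 in both BT549 backgrounds. The members' median ratio was 0.05, 0.15, -0.19 and -0.25 in MDA-MB468 parental and CE and BT549 parental and CE cells, beside -0.09, -0.04, -0.10 and -0.17 over all 11135 genes that averaged 5 CPM or more. TMM scaling moved the median of all genes in BT549 CE cells by 0.14, to -0.03, and HSPA8 and DNAJB1 to -1.23 and -0.93 there. A ratio of at least 1 in size was reached by 0 members in MDA-MB468 parental cells, MDA-MB468 CE cells and BT549 parental cells, where 6.07%, 2.88% and 2.25% of all genes reached it. It was reached by 2 members in BT549 CE cells, where 12.8% of all genes did. HSPA8 stood at place 400 from the lowest of the 11135 genes in BT549 CE cells and at place 619 in BT549 parental cells.

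edgeR's quasi-likelihood test, with the 4 backgrounds as the replicates and Benjamini-Hochberg adjustment over all genes, called none of the 8 members for Acetalax against control. It called 984 of 19693 genes (5.00%; 536 higher and 448 lower). HSF1 came nearest among the members, with a log2 fold change of 0.27 ± 0.09 (SE), an unadjusted edgeR p of 0.0204 and an adjusted p of 0.113. It was the 1 member with an unadjusted p under 0.05, as were 28.0% of all genes. The estimates of the other 7 ranged from -0.33 ± 0.25 for HSPA8 to 0.20 ± 0.10 for HSPH1. The SE of HSPA8 was the largest of the 8, since its 4 ratios ran from -1.38 to 0.48. Without the BT549 CE pair the estimate of HSPA8 was -0.03 and that of DNAJB1 went from -0.29 to -0.07, and without the MDA-MB468 CE pair HSPA8 was at -0.61. The members' median estimate was -0.038, beside -0.035 over all genes.

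The response of the lines was compared as the Acetalax effect in BT549 minus that in MDA-MB468. The replicates were the parental and CE cells of each line. These are related cultures, so the p-values may be too small for a difference between lines. For HSPA8 the difference was -1.19 ± 0.23 on the log2 scale, with an unadjusted p of 0.000975 and an adjusted p of 0.0514 in edgeR, just outside the threshold of 0.05. For DNAJB1 it was -0.76 ± 0.19 with an adjusted p of 0.101 in edgeR. HSPA8 passed the threshold under all 5 other settings tried, with an adjusted p of 0.0329 under DESeq2's size factors, 0.0381 under total counts, 0.0353 with repeated rows summed, 0.00166 in DESeq2 and 2.51e-16 without a low-count filter. DNAJB1 passed in DESeq2 (adjusted p = 0.0183) and without the filter (0.00308). These settings reuse the same 8 libraries, and each called more genes than the main fit. In the order listed for HSPA8 they called 467 of 19693, 463 of 19693, 415 of 19828, 926 of 37154 and 1632 of 37154 genes. Of the 8 members 0 were called in the main fit, where 351 of 19693 genes (1.78%) were. An unadjusted edgeR p under 0.05 was reached by 4 (HSPA8, DNAJB1, HSP90AA1 and BAG3), and by 17.3% of all genes. For these 4 the Acetalax response was the lower one in BT549, which says nothing of their levels. BAG3 differed by -0.41 ± 0.16 and HSP90AA1 by -0.27 ± 0.11, with adjusted p-values of 0.248 and 0.247 in edgeR, and the difference for HSPB1 was 0.01 ± 0.15. In parental cells alone the HSPA8 ratios were -0.70 in BT549 and -0.08 in MDA-MB468, and those of DNAJB1 were -0.49 and 0.04. Each of these ratios came from 1 pair of libraries, and their difference was not tested.

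**Figure D3:**
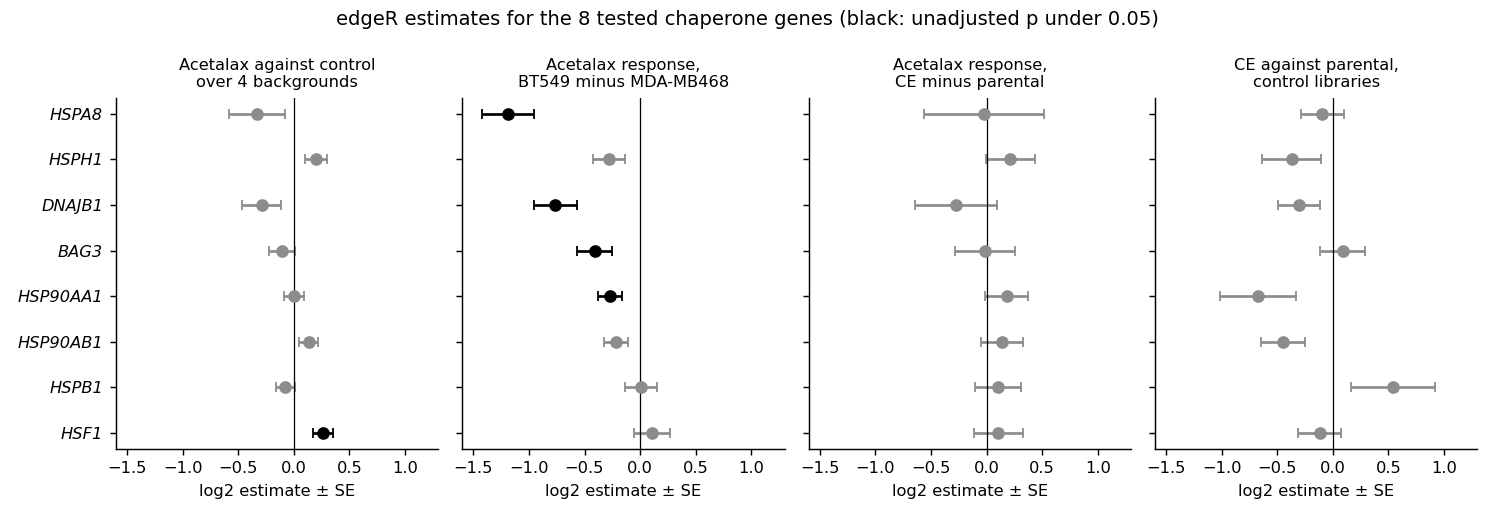
edgeR estimates (points, log2 scale) with their standard errors (bars) for the 8 tested members in 4 comparisons; black marks an unadjusted p under 0.05, and no member passed the adjusted threshold. The estimates farthest from 0 are those of HSPA8 (-1.19) and DNAJB1 (-0.76) for the response in BT549 minus MDA-MB468.

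The Acetalax response was not detectably different between CE and parental cells for any member, with wide errors. edgeR called 0 of 19693 genes (0.00%), with 91 at an unadjusted p under 0.05. The members' differences, CE minus parental, ranged from -0.28 ± 0.37 for DNAJB1 to 0.21 ± 0.22 for HSPH1 (SE, log2 scale). For HSPA8 the difference was -0.02 ± 0.54, since the ratio was higher in CE than in parental cells of MDA-MB468 (0.48 against -0.08) and lower in BT549 (-1.38 against -0.70). Each of these was 1 pair of libraries.

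CE and parental control cells differed for the members mainly in BT549. These pairs share their control libraries with the Acetalax pairs. HSPB1 was at 815 CPM in BT549 CE control and 373 in parental control, 2.18-fold higher (ratio 1.13), and HSP90AA1 was at 1840 against 4454 CPM, 2.42-fold lower (-1.28). Lower values in BT549 CE control were also seen for HSPH1 (-0.79), HSP90AB1 (-0.58), DNAJB1 (-0.39), HSF1 (-0.32), HSPA8 (-0.21) and BAG3 (-0.16). HSP90AA1 took place 238 from the lowest of 11135 genes. In MDA-MB468 the ratios were smaller, from -0.32 for HSP90AB1 and -0.23 for DNAJB1 to 0.33 for BAG3, with HSPB1 at -0.05 and HSP90AA1 at -0.08. Of the members, 2 reached 1 in size in BT549, as did 9.95% of all genes, and 0 in MDA-MB468, as did 2.60%. HSP90AA1 per HSP90AB1 (FPKM) was 0.952 in BT549 parental and 0.586 in BT549 CE control, and 0.463 and 0.548 in MDA-MB468. With the lines as the replicates, edgeR called 0 of 18377 genes (0.00%; 610 at an unadjusted p under 0.05) and 0 of the 8 members, the smallest adjusted p being 0.947, and HSPB1 was estimated at 0.54 ± 0.38 and HSP90AA1 at -0.67 ± 0.34. In the same BT549 libraries the keratins KRT8 and KRT18 went from 1.25 and 6.67 CPM in parental control to 34.4 and 47.9 in CE control. The epithelial KRT19 and CDH1 also went up, from 0.639 and 0.237 to 4.15 and 0.959 CPM. The keratin KRT7 went the other way, from 260 to 88.9 CPM, as did EPCAM, from 0.189 to 0.0369. The epithelial markers thus did not move together. The mesenchymal VIM and FN1 went from 1327 and 1629 CPM to 864 and 593. The part of these differences between the BT549 cultures in the chaperone values was not tested.

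Between the lines, the share of members with separate ranges was near that of all genes. HSF1 was at 163 to 219 CPM in BT549 and at 70.7 to 80.8 in MDA-MB468, HSPH1 at 532 to 947 against 213 to 295, HSPB1 at 348 to 815 against 185 to 226, and BAG3 at 108 to 158 against 54.5 to 68.6. Of the members with separate ranges DNAJB1 alone was lower in BT549, at 76.1 to 213 against 271 to 329 CPM. The ranges of the 4 libraries did not overlap for these 5 of 8 members, beside 55.7% of all genes. Those of HSPA8, HSP90AA1 and HSP90AB1 overlapped.

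Likeness to HSPA1A and HSPA1B, which had been the intended measure, could not be computed from so few counts, and likeness to HSPA8 was used after its values had been seen. Levels were taken as log2(CPM + 0.5) centred within each line over the 8 libraries, which share their scaling and controls. Among the members DNAJB1 (Pearson's r = 0.84) and BAG3 (0.82) were most like HSPA8, and HSPB1 was least like it (-0.22). HSPH1, HSP90AA1 and HSP90AB1 resembled each other (0.86 to 0.93), and HSPB1 ran against HSP90AA1 (-0.90). Centring within lines leaves the difference between CE and parental cultures in these values. In BT549 parental and CE controls HSP90AA1 was at 4454 and 1840 CPM and HSPB1 at 373 and 815. In MDA-MB468 HSP90AA1 stayed at 1540 to 1743 CPM and HSPB1 at 185 to 226. The part of the BT549 culture difference in the correlations was not tested. Of all genes averaging 5 CPM or more, the 5 most like HSPA8 were OGDH (r = 0.989), a subunit of the mitochondrial 2-oxoglutarate dehydrogenase, ALKBH8 (0.988), a tRNA-modifying enzyme, ZNF544 (0.986), C17orf70 (0.984) and ZNF503 (0.983). ALKBH8, for instance, was at 9.29 CPM in BT549 CE control and 2.43 after Acetalax, and at 17.3 and 23.4 in MDA-MB468 CE cells.

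The other chaperone genes were taken as 10 lists of 107 genes, chosen with earlier results of these data known. Their cytosolic part did not move as a block. Of the HSP70 and HSP110 relatives 8 were tested and 0 called for Acetalax in edgeR, with a median log2 fold change of -0.07. HSPA4L, an HSP110 protein, was picked because its ratios shared a sign in 4 pairs (-0.24 to -1.04), so that this sign is no separate support. Its estimate was -0.51 ± 0.15, with an adjusted p of 0.0871 in edgeR. HSP90 cochaperones (14 tested, median 0.07), nucleotide exchange factors and BAG proteins (6, 0.14), the HSF family (4, 0.13), cytosolic and mitochondrial chaperonins (10, 0.11), small heat shock proteins (3, 0.08) and proteasome subunits (30, 0.07) had 0 calls each. Of the 3 small heat shock proteins only CRYAB averaged 5 CPM or more, and its estimate was -0.352 ± 0.215. The median of that list was the value of HSPB7, which averaged 0.276 CPM. CDC37, which loads kinases onto HSP90, was at 0.24 ± 0.08, and HSF2 at 0.38 ± 0.12, with adjusted p-values of 0.103 and 0.101 in edgeR. Of the other genes induced by heat 8 were tested and 0 called (median -0.16). Genes of both signs were among them. The polyubiquitin gene UBB was at -0.41 ± 0.12 (edgeR adjusted p = 0.0817). SQSTM1 went the other way, at 0.64 ± 0.17, with the smallest adjusted p of this list (0.069 in edgeR). HMOX1 was at 0.71 ± 0.53 (edgeR adjusted p = 0.421). Of 12 J-domain proteins 1 was called: DNAJC2, which works on the ribosome, rose by 0.53 ± 0.11 (adjusted p = 0.0437 in edgeR) and was higher in 4 of 4 pairs. This call was lost under total counts (adjusted p = 0.0508) and without any one of the 4 pairs (0.0682 to 0.178).

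HSP70 and HSP90 of the endoplasmic reticulum rose after Acetalax, while HSPA8, HSP90AA1 and HSP90AB1 were not called. A difference between the 2 groups of genes was not tested. HSPA5 (BiP), the HSP70 of the endoplasmic reticulum, went from 484 to 1062 CPM in MDA-MB468 parental, from 509 to 984 in MDA-MB468 CE, from 986 to 1348 in BT549 parental and from 1460 to 3985 CPM in BT549 CE cells. It rose by 1.09 ± 0.16 on the log2 scale (edgeR adjusted p = 0.0313). Without the MDA-MB468 parental pair, where edgeR called 0 genes in all, its estimate was 1.06 and its adjusted p 0.170, and without the background term the adjusted p was 0.1625. It stayed called without each of the other pairs. HSP90B1 (GRP94), the HSP90 of the endoplasmic reticulum, rose by 0.39 ± 0.08 (adjusted p = 0.0431 in edgeR), from 591 to 728 and from 596 to 758 CPM in MDA-MB468 parental and CE cells and from 675 to 755 and from 1442 to 1904 CPM in BT549. Its call was lost under total counts (adjusted p = 0.0513) and without any one of the 4 pairs (0.0640 to 0.184). DNAJC2 and HSP90B1 also lost their calls without the background term (0.151 and 0.557). HSPA5 and HSP90B1 were 2 of the 5 genes in the list of organelle HSP70 and HSP90 proteins, whose median was 0.39.

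HSPA5 per HSPA8, a ratio of FPKM within each library that is free of scaling, was 0.166 in MDA-MB468 parental control and 0.384 after Acetalax, 0.172 and 0.239 in MDA-MB468 CE, 0.277 and 0.614 in BT549 parental, and 0.475 and 3.39 in BT549 CE cells. It was higher after Acetalax in 4 of 4 pairs, by 0.47 to 2.83 on the log2 scale. An exact permutation test over 4 pairs cannot give a two-sided p below 0.125, and the ratio was chosen with its values known. HSP90B1 per HSP90AB1 was also higher in 4 of 4 pairs, by 0.04 to 0.53, and in BT549 it was already 0.179 in CE control against 0.0562 in parental control.

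**Figure D4:**
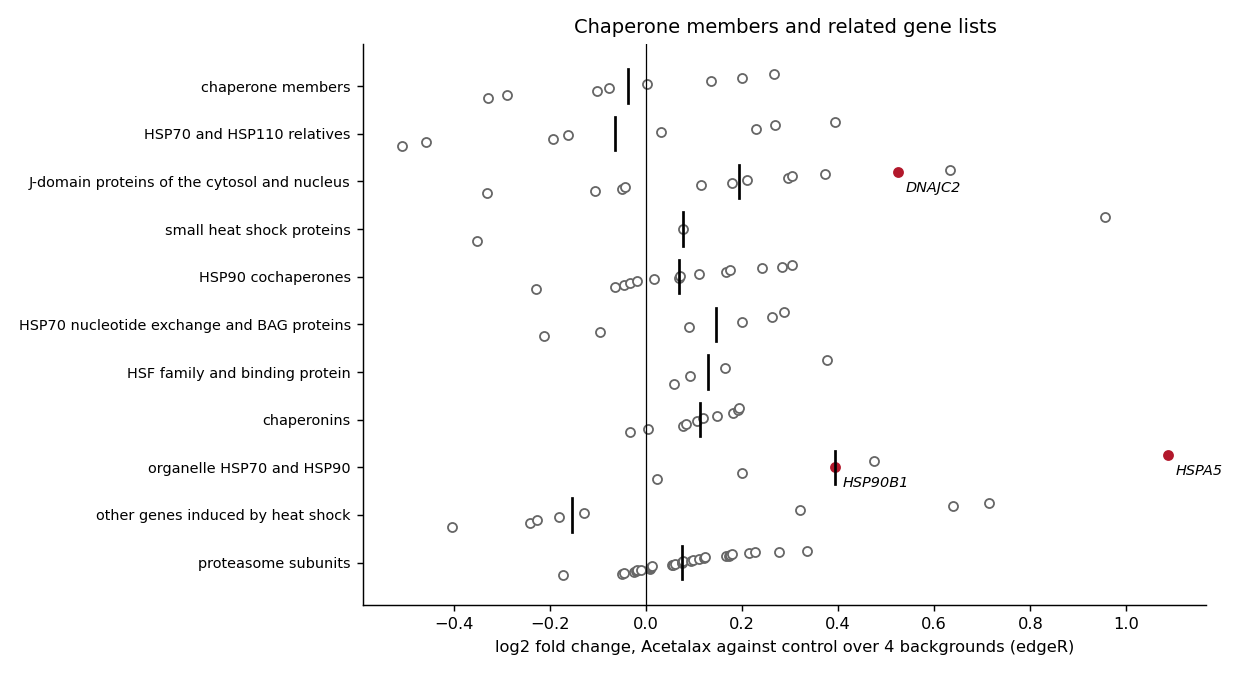
edgeR log2 fold change for Acetalax against control over 4 backgrounds (horizontal axis) of each tested gene (points) in the members and 10 related lists (rows), with a black bar at each list's median and filled red points for genes called at an adjusted p under 0.05. The called genes are HSPA5 (1.09), DNAJC2 (0.53) and HSP90B1 (0.39), and no member is called.

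**Figure D5:**
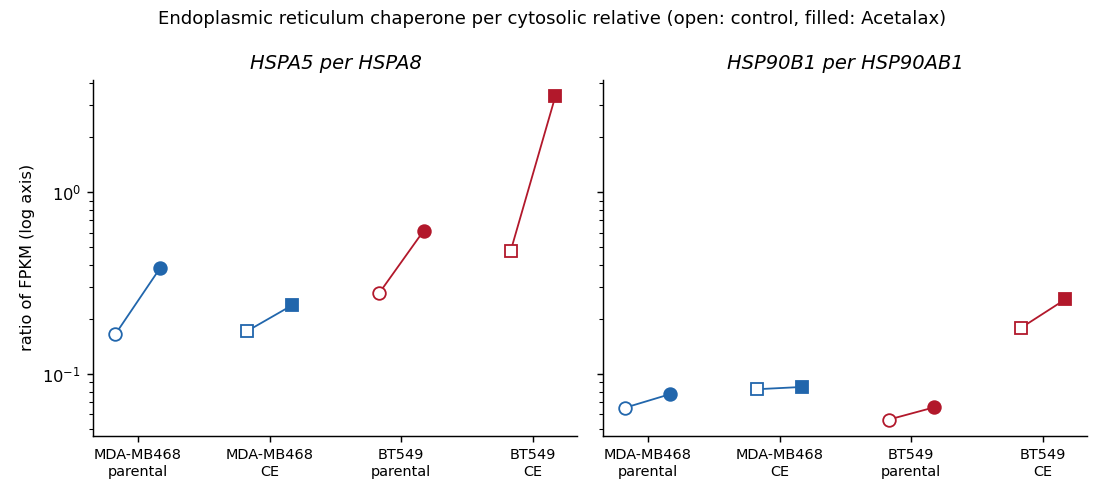
Ratio of FPKM within each library (vertical axis, log scale) of HSPA5 to HSPA8 (left) and of HSP90B1 to HSP90AB1 (right), control (open) joined to Acetalax (filled) in 4 backgrounds; each point is 1 library, without error bars. HSPA5 per HSPA8 reaches 3.39 in BT549 CE cells after Acetalax and lies between 0.166 and 0.614 in all parental and MDA-MB468 libraries.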

How the data were processed

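RNA-seq (poly-A selected, directional kit) of 8 libraries was analysed, 1 per condition. Reads were placed on hg19 by the authors using STAR (2.7.11b in the submitters' processing notes; the study's methods name another release) and deposited raw counts per gene from its GeneCounts option, which takes uniquely placed reads. The annotation release and the strand column are not given in the sources used here. The table has 58154 rows for 55679 identifiers; 1392 identifiers were repeated, 3 with differing counts, and each was kept once. Genes that overlap or have near-identical copies are uncertain: HSPA8 contains small nucleolar RNA genes, HSP90AA1 overlaps WDR20 and DNAJB1 overlaps TECR. The members and lists were chosen with earlier results of these data known.

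CPM used total counts on genes (42261122 to 54241728) and FPKM merged exon lengths of a GENCODE annotation on hg19 (55663 identifiers). Pair ratios are differences of log2(CPM + 0.5), with exact (Clopper-Pearson) 95% counting intervals. Tests used edgeR 4.0.16 in R 4.3.3 (quasi-likelihood, TMM, filterByExpr, threshold 0.05): 4 background intercepts and an Acetalax term (3 residual degrees of freedom), its difference by line or by CE state (2), and line and CE terms over the 4 control libraries (1). Backgrounds and lines serve as replicates, so p-values measure the spread between them. edgeR draws the spread of each gene towards that of all genes. The p-values of a gene therefore rest in part on other genes, and not on its own residual degrees of freedom alone. Parental and CE cells of a line are related cultures and not independent ones. The SE of an edgeR estimate was derived as its size divided by the square root of the F statistic of the test. The scripts were tested on simulated data. All 10 members were named; of each list, up to 3 genes called for Acetalax, or else those of one sign in 4 pairs with the largest smallest ratio, of which the text gives a selection. HMOX1, called between the lines, and HSPA1L, HSPA6, C6orf48, LSM2 and NEU1, given for their counts, fall outside this rule. So do SQSTM1 and CRYAB. All of these were picked with their values known. Alternatives were DESeq2 1.42.0 (test and size factors), total counts, no filter, summed repeats, leaving out each pair, no background term, all 8 libraries, and pseudocounts of 0.1 and 1.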

Additional observations from a re-analysis of the deposited data

Results flagged for a closer look

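HMOX1, the heme oxygenase gene induced by heat and oxidative stress, was the gene of the related lists whose Acetalax response differed between the lines by a test of the difference itself. It went from 223 to 798 CPM in BT549 parental and from 219 to 848 CPM in BT549 CE cells, and from 13.8 to 7.74 and from 28.0 to 18.2 CPM in MDA-MB468 parental and CE cells. The response in BT549 minus that in MDA-MB468 was 2.67 ± 0.15 (SE) on the log2 scale, with an adjusted p of 0.00283 in edgeR. HMOX1 was called under the 5 other settings tried, which called 415 to 1632 genes in all. The lists held 107 genes, and HMOX1 was their 1 call in the main fit. That fit called 351 of 19693 genes (1.78%) for this difference. Parental and CE cells of each line, which are related cultures, were the replicates here as well.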

How the results depend on the processing

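The 8 libraries have no replicates, so a difference between cultures and an effect of a condition cannot be told apart within 1 pair. Genes called for Acetalax numbered 984, against 3585 without a low-count filter, 2678 in DESeq2, 0 to 554 when 1 pair was left out (0 without the MDA-MB468 parental, 263 without the BT549 CE, 311 without the BT549 parental and 554 without the MDA-MB468 CE pair) and 0 without the background term. Calls for the CE-minus-parental response went from 0 to 3 without a filter; those for the line difference from 351 to 1632 without a filter and 926 in DESeq2; and those for CE against parental controls from 0 to 45 without a filter, 46 in DESeq2 and 23 with all 8 libraries. The cause was not tested.

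Members changed sign only where an estimate was near 0. HSP90AA1 for Acetalax (0.00) became -0.089 under total counts, -0.067 to 0.090 when 1 pair was left out (-0.067 without MDA-MB468 CE) and -0.004 without the background term, and BAG3 (-0.10) ran from -0.191 to 0.009, the latter without the BT549 parental pair. For the CE-minus-parental response HSPA8 (-0.02) became 0.013 under size factors, 0.034 without a filter, 0.027 in DESeq2 and 0.001 with repeated rows summed, and BAG3 (-0.02) became 0.019, 0.040, 0.034 and 0.007. For the line difference HSPB1 (0.01) became -0.001 under size factors, -0.044 under total counts, -0.005 without a filter and -0.010 in DESeq2. HSPA8 passed the threshold for Acetalax without a filter only (-0.32, adjusted p = 0.00622). The main fit already pairs control and Acetalax within each background, and the labels give no replicate numbers for a further block.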
